A study of Homo sapiens with 12 samples.

Results

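The DOCK genes encode large guanine nucleotide exchange factors, and 8 of them were followed here across HL-60/S4 cells with and without tumor necrosis factor alpha (TNF-α): *DOCK1*, *DOCK2*, *DOCK4*, *DOCK5*, *DOCK8*, *DOCK9*, *DOCK10* and *DOCK11*. They are 8 of the 58288 genes in the count table. The 8 rows were taken by gene symbol, and the set had been selected on the measured TNF-α responses and levels of these same libraries, *DOCK10* because it changed in opposite directions in the 2 cell types. Responses and levels of the 8 genes are therefore given as a description, with intervals and without p-values.

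DOCK proteins load GTP onto small GTPases through a catalytic domain unlike that of the larger Dbl family of exchange factors. The active GTPases, chiefly RAC and CDC42, bind effectors that build branched actin, so the DOCK proteins sit between surface receptors and the cytoskeleton in migrating and phagocytosing leukocytes. By sequence they form 4 subfamilies, here represented by A (*DOCK1*, *DOCK2*, *DOCK5*) and B (*DOCK3*, *DOCK4*), which act on RAC together with ELMO adaptors, C (*DOCK6*, *DOCK8*) and D (*DOCK9*, *DOCK10*, *DOCK11*), whose members act on CDC42, RAC or both. In neutrophils DOCK2 is known for RAC activation during chemotaxis, and inherited loss of DOCK8 causes an immunodeficiency with impaired leukocyte migration.

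HL-60/S4 is an established human promyelocytic leukemia line that grows as promyelocytes and becomes granulocytic under all-trans retinoic acid (ATRA). The 12 libraries comprised 3 of promyelocytes with vehicle (water), 3 of promyelocytes with TNF-α, 3 of granulocytes with vehicle and 3 of granulocytes with TNF-α. Cells were exposed to TNF-α (16 ng/ml) or water for 2 h, granulocytes had received 1 µM ATRA for 4 days, all cells were at passage 8 in medium with added calcium, and each library came from its own flask. Because promyelocytes and granulocytes were treated in separate experiments, cell type and experiment cannot be told apart in any comparison of their levels, and no such comparison was tested. The total count over genes ran from 22829189 to 31895061 per library, so that 3 counts, taken as the floor of detection, stood at 0.0941 to 0.131 CPM (counts scaled to the library size). Intervals and the floor cover the spread between these flasks and counting error only. The TNF-α target genes *NFKBIA* and *TNFAIP3* rose in promyelocytes (log2 fold changes 3.91 and 3.63) and in granulocytes (5.51 and 5.08) (edgeR quasi-likelihood test, adjusted p = 1.75e-19, 3.03e-19, 3.37e-39 and 3.56e-38).

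The labelled cell types were compared with their markers. Summed over 6 azurophil granule and promyelocyte genes (*MPO*, *ELANE*, *AZU1*, *PRTN3*, *CTSG*, *CD33*), the level was 7440 to 8271 CPM in vehicle-treated promyelocytes and 2301 to 2516 CPM in vehicle-treated granulocytes, where *ELANE* was at or under the floor. *MPO* made up most of that sum, with means of 6422 and 2019 CPM. *CD33* went the other way, at 124 to 128 CPM and 165 to 172 CPM, while the remaining members were lower in granulocytes. Summed over 6 genes of granulocytic differentiation (*ITGAM*, *CSF3R*, *CYBB*, *NCF1*, *FPR1*, *CD38*), the level was 155 to 164 CPM and 4693 to 4955 CPM. Of 4 monocyte and macrophage genes, *CD163* and *MRC1* stayed at or under 3 counts in every library and *CD14* reached at most 12 counts, while *CSF1R* had means of 3.99 CPM and 49.7 CPM in vehicle-treated promyelocytes and granulocytes. The lymphocyte marker *MS4A1* and the erythroid markers *HBB* and *ALAS2* were at 0 in all 12 libraries.

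The 8 genes are long. On hg38, the genome build of the count table, *DOCK10* spans chr2:224765090-225042445 on the minus strand, *DOCK2* chr5:169637247-170083382 (plus), *DOCK4* chr7:111726110-112206411 (minus), *DOCK8* chr9:214854-465259 (plus) and *DOCK11* chrX:118495898-118686163 (plus). *DOCK1* lies at chr10:126905409-127452517 (plus) and *DOCK9* at chr13:98793429-99086625 (minus). Their spans ran from 190 kb (*DOCK11*) to 547 kb (*DOCK1*), against a median of 17.7 kb over the 18124 genes tested for the difference of the responses. Each member had 54 to 62 merged exons, with a summed exon length of 6721 bp (*DOCK11*) to 15960 bp (*DOCK5*) against a median of 3563 bp. The exon GC content of *DOCK10* and *DOCK11* (42.0% and 40.1%) lay under the median of 47.9%, and that of *DOCK2* (49.4%) above it.

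The sequence upstream of the annotated starts is shown for *DOCK10*, whose response changed sign between the cell types, and, to set beside it, for *DOCK8* and *DOCK11*, which fell in granulocytes, and for *DOCK2*, which was not called in either cell type. RefSeq (GRCh38.p14) gave starts for 7 of the 8 members: 3 for *DOCK10*, 2 each for *DOCK8* and *DOCK9*, and 1 each for *DOCK1*, *DOCK2*, *DOCK4* and *DOCK11*. The 250 bases before a start were searched on both strands for the kappa-B consensus bound by NF-κB, for the GC box GGGCGG, and for 2 ETS-type motifs, GAGGAAG and CCGGAAG. Over the 35116 RefSeq starts of all genes, 9.96% of such windows held the kappa-B consensus, 42.6% held GGGCGG, 11.2% held GAGGAAG and 8.52% held CCGGAAG. The windows are printed 5′ to 3′ on the gene's strand and stop before any exon of the same gene in the deposited table or in GENCODE 44, with every match that lies wholly inside the printed stretch in capitals:
DOCK10 start 1, chr2:225042469-225042718, minus: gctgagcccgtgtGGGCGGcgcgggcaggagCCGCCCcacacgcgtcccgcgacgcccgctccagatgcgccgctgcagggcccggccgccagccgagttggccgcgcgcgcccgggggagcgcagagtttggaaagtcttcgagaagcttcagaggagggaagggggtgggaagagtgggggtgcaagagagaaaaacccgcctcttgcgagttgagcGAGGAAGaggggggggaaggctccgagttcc
DOCK10 start 2, chr2:224982428-224982677, minus: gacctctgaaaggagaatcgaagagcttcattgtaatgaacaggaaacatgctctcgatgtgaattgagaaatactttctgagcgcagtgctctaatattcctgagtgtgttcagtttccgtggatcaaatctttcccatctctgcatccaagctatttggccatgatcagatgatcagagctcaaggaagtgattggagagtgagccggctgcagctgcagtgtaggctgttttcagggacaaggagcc
DOCK8 start 1, chr9:214615-214853, plus: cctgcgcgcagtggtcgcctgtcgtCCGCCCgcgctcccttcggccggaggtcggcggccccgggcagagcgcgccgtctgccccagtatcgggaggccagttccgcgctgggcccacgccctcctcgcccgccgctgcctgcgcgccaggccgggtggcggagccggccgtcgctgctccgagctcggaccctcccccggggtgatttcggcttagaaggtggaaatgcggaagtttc
DOCK11, chrX:118495565-118495814, plus: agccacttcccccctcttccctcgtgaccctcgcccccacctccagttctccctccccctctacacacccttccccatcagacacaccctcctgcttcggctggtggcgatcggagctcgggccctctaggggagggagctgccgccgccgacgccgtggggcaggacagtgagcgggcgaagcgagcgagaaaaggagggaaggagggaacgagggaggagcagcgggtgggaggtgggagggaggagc
DOCK2, chr5:169637025-169637246, plus: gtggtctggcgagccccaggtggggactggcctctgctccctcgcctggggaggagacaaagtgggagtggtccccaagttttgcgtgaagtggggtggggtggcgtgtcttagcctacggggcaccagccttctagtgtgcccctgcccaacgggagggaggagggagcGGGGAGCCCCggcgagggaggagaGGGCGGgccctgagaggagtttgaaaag

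The first window of *DOCK10* was GC-rich (70.4%, 27 CpG dinucleotides) and held GGGCGG at 2 places and GAGGAAG once, whereas its second window, which lies in an intron of the deposited gene model, was at 46.4% GC with 5 CpG and held no match. The window of *DOCK10* start 3, not printed, was at 38.0% GC with 2 CpG and held no match either. The window of *DOCK8* start 1 (75.2% GC, 36 CpG) held GGGCGG once and overlapped an exon of the antisense transcript *DOCK8-AS1*, and that of *DOCK8* start 2, not printed (43.6% GC, 3 CpG), held GAGGAAG at 2 places. The window of *DOCK11* (68.8% GC, 17 CpG) held no match. The window of *DOCK2* (68.0% GC, 12 CpG) held the kappa-B consensus, as GGGGAGCCCC, beginning 80 bases before the start, together with GGGCGG and, in the part not printed because it reaches into the first exon of the deposited table, GAGGAAG. Of the other windows searched, the kappa-B consensus was found at 2 places before *DOCK1* and once before *DOCK9* start 2, genes at or under the floor here, and not before *DOCK4*, *DOCK8*, *DOCK10* or *DOCK11*. No 2 matches in the windows of *DOCK2*, *DOCK8*, *DOCK10* and *DOCK11* overlapped. A match is a description of the letters, and the counts, which are per gene, do not show which of the *DOCK10* or *DOCK8* starts was used.

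Of the 8 members, 6 were detected and passed the filter on low counts in both cell types, and 2 were at or under the floor. The 6 were *DOCK2*, *DOCK4*, *DOCK5*, *DOCK8*, *DOCK10* and *DOCK11*. *DOCK1*, which acts on RAC downstream of phagocytic and integrin receptors in many adherent cells, had 0 counts in all 12 libraries. *DOCK9*, an exchange factor for CDC42, had 1 count in 1 library (granulocyte vehicle, replicate 3) and 0 in the other 11. Neither was tested, and no fold is given.

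**Figure D1:**
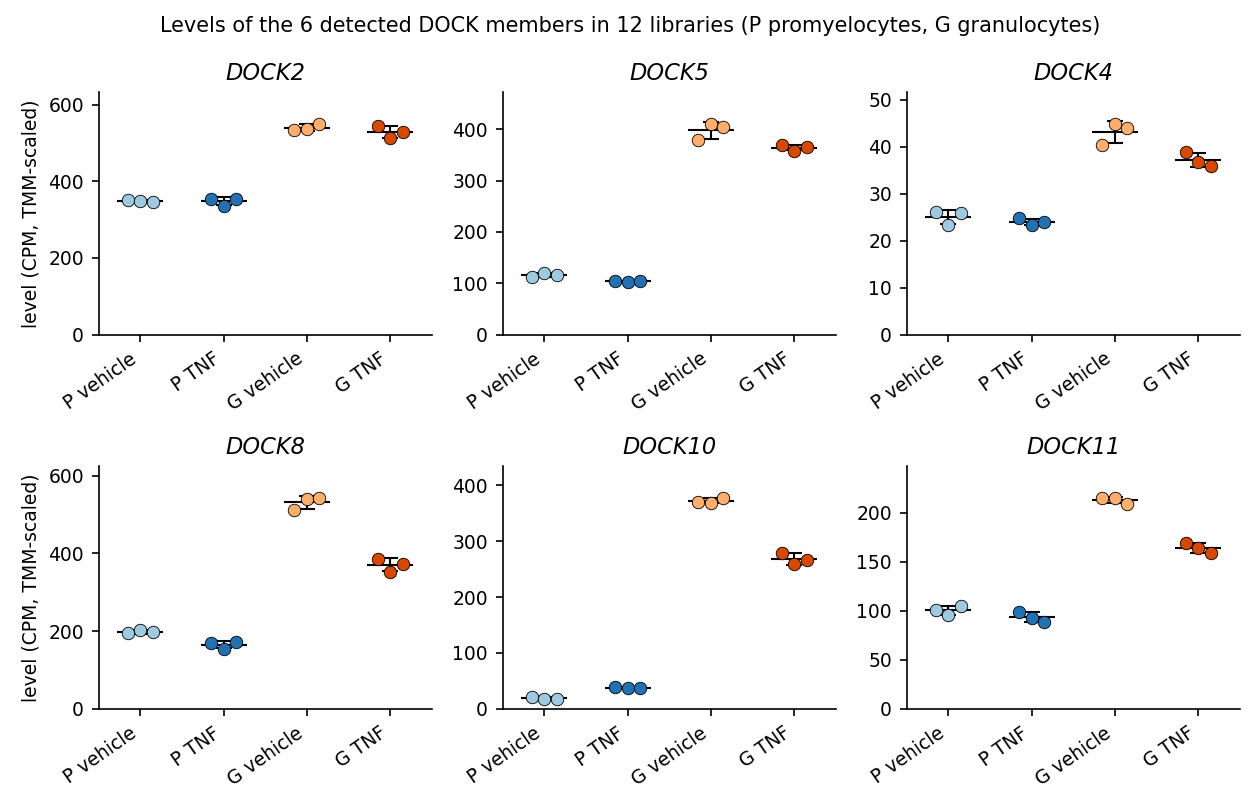
Levels of the 6 detected members in each library, as CPM scaled by TMM (linear axes from 0, each gene on its own scale), for promyelocytes (P) and granulocytes (G) with vehicle or TNF-α. Points are libraries, and the horizontal mark and bars are the mean and SD of 3 libraries. *DOCK10* rises from 17.8 to 20.7 CPM to 36.8 to 38.7 CPM in promyelocytes and drops from 369 to 377 CPM to 259 to 279 CPM in granulocytes, while *DOCK2* overlaps between vehicle and TNF-α in both cell types.

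Levels can be ordered between genes only per exon length, as CPM per kb. In promyelocytes with vehicle *DOCK2* stood first at 27.01 ± 0.27 CPM per kb (SD, n = 3), followed by *DOCK11* at 14.9 ± 0.74 and *DOCK8* at 14.4 ± 0.34, which overlapped each other. *DOCK5* came next at 7.31 ± 0.23, then *DOCK4* at 2.18 ± 0.13, and *DOCK10* was the lowest of the 6 at 1.71 ± 0.14 CPM per kb. Over the 16250 genes tested in promyelocytes, 31.1% had a lower level per length than *DOCK10* and 89.7% a lower level than *DOCK2*. In promyelocytes with TNF-α *DOCK10*, at 3.40 ± 0.09 CPM per kb, stood above *DOCK4*, at 2.09 ± 0.06, with no overlap of their libraries, and the other 4 kept their order.

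In granulocytes with vehicle the levels per length lay closer together. *DOCK2* was at 41.8 ± 0.73 CPM per kb (SD, n = 3), *DOCK8* at 38.5 ± 1.3, *DOCK10* at 33.6 ± 0.41, *DOCK11* at 31.7 ± 0.51 and *DOCK5* at 25.0 ± 1.0, each without overlap with the next, and *DOCK4* was lowest at 3.75 ± 0.21. *DOCK10* thus stood behind *DOCK2* and *DOCK8*, with 93.6% of the 16944 genes tested in granulocytes below it. In granulocytes with TNF-α *DOCK11*, at 24.4 ± 0.78, and *DOCK10*, at 24.2 ± 0.91 CPM per kb, overlapped each other behind *DOCK2* (41.0 ± 1.2) and *DOCK8* (26.9 ± 1.2). *DOCK5* and *DOCK4* again came last, at 22.8 ± 0.34 and 3.23 ± 0.13 CPM per kb. The granulocyte level exceeded the promyelocyte level for each of the 6 genes, by 1.55-fold for *DOCK2*, 1.72-fold for *DOCK4*, 2.12-fold for *DOCK11*, 2.67-fold for *DOCK8*, 3.41-fold for *DOCK5* and 19.7-fold for *DOCK10* among vehicle-treated cells; these ratios set 2 separate experiments side by side and were not tested.

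The comparison of TNF-α with vehicle asked which DOCK genes changed within 2 h in each cell type. A gene was called when its adjusted p was under 0.05 in edgeR's quasi-likelihood test, fitted to all genes in each cell type alone. In promyelocytes 2 of the 6 members tested were called, *DOCK10* higher and *DOCK8* lower, where 14.8% of all 16250 genes were called (8.15% higher and 6.65% lower). In granulocytes 5 of the 6 were called, all lower (*DOCK4*, *DOCK5*, *DOCK8*, *DOCK10* and *DOCK11*), where 49.2% of all 16944 genes were called (24.4% higher and 24.8% lower). The difference of the 2 responses, taken as the interaction term over the 12 libraries, was called for 3 of the 6 members (*DOCK8*, *DOCK10*, *DOCK11*), each with the lower value in granulocytes, where 24.0% of all 18124 genes were called (14.1% higher and 9.88% lower in granulocytes; of the calls, 58.9% were higher, and 48.4% with DESeq2's size factors). The median log2 fold change of the 6 was -0.06 in promyelocytes and -0.31 in granulocytes, beside -0.0094 and -0.0047 over all genes tested. Since the members were picked with these contrasts known, the counts describe the set and support nothing further. In bulk RNA, fewer cells with a transcript and less transcript per cell cannot be told apart.

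**Figure D2:**
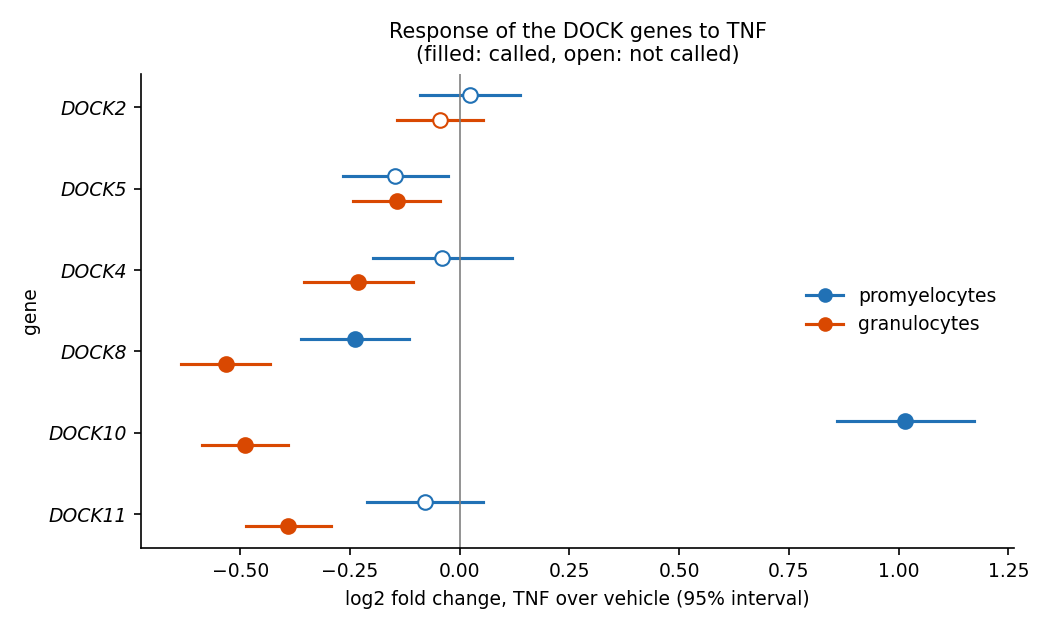
Log2 fold changes of TNF-α over vehicle with 95% intervals from edgeR (3 libraries per group) for the 6 detected members, in promyelocytes (blue) and granulocytes (orange); filled points were called, open points were not. *DOCK10* lies at 1.02 in promyelocytes and -0.49 in granulocytes, and both intervals of *DOCK2* include 0.

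*DOCK10*, a subfamily D exchange factor for CDC42 and RAC first described in lymphocytes, was the member that moved in opposite directions. In the 3 vehicle-treated promyelocyte libraries it stood at 20.7, 18.2 and 17.8 CPM (633, 496 and 516 counts), and in the 3 TNF-α libraries at 38.7, 37.4 and 36.8 CPM (1028, 1047 and 1168 counts). All 3 TNF-α libraries lay far above all 3 vehicle libraries. The log2 fold change was 1.02 ± 0.07 (SE), a 2.02-fold rise with a 95% interval of 1.81 to 2.25. Of the 1324 genes called higher in promyelocytes, 305 had a larger rise (23.0%). Markers of differentiation moved in the same libraries: the summed granulocytic markers stood at 155 to 164 CPM with vehicle and 262 to 278 CPM with TNF-α, and the azurophil granule and promyelocyte markers at 7440 to 8271 CPM and 6171 to 7075 CPM. The granulocytic sum was carried by *CYBB*, with group means of 113 and 216 CPM, and *NCF1*, with 10.1 and 23.6 CPM, while *CSF3R* went the other way from 20.6 to 22.3 CPM to 14.7 to 17.3 CPM and *ITGAM*, *FPR1* and *CD38* overlapped between the groups. The lymphocyte list (*CD3E*, *MS4A1*, *CD2*), with *MS4A1* at 0, went from 0.690 to 1.21 CPM to 0.376 to 0.607 CPM. The part of these shifts in the *DOCK10* and *DOCK8* values of promyelocytes was not tested.

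In granulocytes *DOCK10* stood at 370, 369 and 377 CPM with vehicle (9614, 11155 and 11259 counts) and at 279, 259 and 266 CPM with TNF-α (6171, 7230 and 5888 counts). Every TNF-α library was below every vehicle library. The log2 fold change was -0.49 ± 0.05 (SE), a fall to 0.713 of the vehicle level with a 95% interval of 0.666 to 0.763. Larger falls were found for 1911 of the 4209 genes called lower in granulocytes (45.4%). The difference of the responses, granulocytes minus promyelocytes, was -1.46 ± 0.08 on the log2 scale. Called in both cell types with opposite signs were 183 of the 15167 genes tested in both (1.21%). In CPM the rise in promyelocytes was 18.7, and in granulocytes the level fell by 104; the ratio of the granulocyte to the promyelocyte level was 19.7 with vehicle and 7.12 with TNF-α. The calls of *DOCK10* held in all 6 fits that left out 1 library in each cell type and in all 12 for the difference, with log2 values of 0.98 to 1.07, -0.51 to -0.46 and -1.53 to -1.42. Since *DOCK10* was picked for its opposite changes in these same libraries, the refits describe the selected values and add no support.

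*DOCK11*, another subfamily D member and activator of CDC42, was not called in promyelocytes. Its promyelocyte levels were 100, 95.3 and 105 CPM with vehicle and 98.9, 92.9 and 88.4 CPM with TNF-α, and the groups overlapped (log2 fold change -0.08 ± 0.06, 95% interval -0.21 to 0.05, not called). In granulocytes it stood at 215, 215 and 209 CPM with vehicle and at 169, 164 and 159 CPM with TNF-α, with no overlap. There it fell by 23.7%, a log2 fold change of -0.39 ± 0.05 (95% interval -0.49 to -0.29). The difference of the responses was -0.27 ± 0.08. After removal of GC and length trends from each library, the promyelocyte value was -0.15 and called and the difference was -0.12 and no longer called.

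*DOCK8*, a subfamily C exchange factor for CDC42, was the member called lower in both cell types. In promyelocytes it stood at 194, 204 and 198 CPM with vehicle and at 170, 155 and 172 CPM with TNF-α, without overlap. The log2 fold change was -0.24 ± 0.06 (SE), a fall of 15.3% in the fit. Without vehicle replicate 2 or without TNF-α replicate 2, the value was -0.22 or -0.19 and the call was lost. In granulocytes the 3 vehicle libraries were at 510, 539 and 543 CPM and the 3 TNF-α libraries at 386, 353 and 373 CPM. That fall was the largest among the 6 members in granulocytes, at -0.53 ± 0.05 on the log2 scale or to 0.691 of the vehicle level (95% interval 0.644 to 0.741). Genes called lower in both cell types were 661 of 15167 (4.36%). The difference of the responses was -0.26 ± 0.08, a call that was lost without granulocyte TNF-α replicate 2 (-0.22).

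Transcripts antisense to *DOCK8* are counted apart, because the table was made with strand. *DOCK8-AS1* had 5 to 13 counts per promyelocyte library and 35 to 56 per granulocyte library, and *DOCK8-AS2* had 0 to 5 counts in any library, against 4335 to 16301 for *DOCK8* itself.

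*DOCK5* and *DOCK2*, of subfamily A, bind ELMO adaptors and act on RAC. *DOCK5* spans chr8:25184723-25418082 on the plus strand. It stood at 113, 120 and 117 CPM in promyelocytes with vehicle and at 105, 102 and 104 CPM with TNF-α. These groups did not overlap, but the log2 fold change of -0.15 ± 0.06 (95% interval -0.27 to -0.03) was not called; it was called after removal of GC and length trends (-0.16) and in 1 fit of all 12 libraries (-0.17). In granulocytes *DOCK5* was at 380, 411 and 404 CPM with vehicle and at 369, 359 and 365 CPM with TNF-α, again without overlap. It fell by 9.44% (log2 fold change -0.14 ± 0.05), and the call was lost without vehicle replicate 2 (-0.12), vehicle replicate 3 (-0.13) or TNF-α replicate 2 (-0.13), and at an adjusted p under 0.01. After removal of GC and length trends the granulocyte value was -0.092, still called. The difference of its 2 responses was 0.04 ± 0.07 (95% interval -0.10 to 0.19) and not called, with the opposite sign under DESeq2's size factors (-0.0092).

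*DOCK2*, the main DOCK gene of leukocytes, was the most abundant member per length in all 4 groups. It stood at 351, 349 and 344 CPM in promyelocytes with vehicle and at 353, 336 and 354 CPM with TNF-α. In granulocytes it was at 533, 535 and 550 CPM with vehicle and at 543, 513 and 528 CPM with TNF-α. Vehicle and TNF-α libraries overlapped in either cell type. Log2 fold changes were 0.02 ± 0.05 (95% interval -0.09 to 0.14) and -0.04 ± 0.05 (-0.14 to 0.05), neither called, so that a change of *DOCK2* beyond about these bounds was not seen at 9398 to 16414 counts per library.

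*DOCK4*, the subfamily B member, known as an activator of RAC and RAP1, was the least abundant of the 6 in 3 of the 4 groups. Its promyelocyte levels were 26.0, 23.4 and 25.9 CPM with vehicle and 24.7, 23.4 and 24.0 CPM with TNF-α, which overlapped (log2 fold change -0.04 ± 0.08, not called). In granulocytes it stood at 40.5, 45.0 and 44.1 CPM with vehicle and at 38.8, 36.7 and 36.0 CPM with TNF-α. There it fell by 14.8%, a log2 fold change of -0.23 ± 0.06 (95% interval -0.36 to -0.11) that was called in all 6 fits with 1 library left out. The difference of the responses, -0.15 ± 0.09 (95% interval -0.35 to 0.04), was not called.

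The SD of the 3 libraries was 0.986% to 8.17% of the mean over the 6 members and 4 groups, with the widest value for *DOCK10* in vehicle-treated promyelocytes, where counting error alone gives 4.49% at 496 counts. Next to the falls of the DOCK genes in granulocytes, the summed level of the monocyte and macrophage genes also moved, from 49.1 to 51.2 CPM with vehicle to 30.1 to 33.8 CPM with TNF-α, nearly all of it *CSF1R*, and its part in the DOCK values was not tested. The summed granulocytic markers went from 4693 to 4955 CPM to 5216 to 5556 CPM and the lymphocyte list from 3.38 to 3.92 CPM to 2.26 to 3.37 CPM, likewise not tested. That granulocytic sum was carried by *NCF1*, whose reads can be split with near-identical pseudogene copies, with group means of 1217 and 1949 CPM. Its members *ITGAM* (297 and 252 CPM), *CSF3R* (46.5 and 38.0 CPM) and *CD38* (1164 and 1030 CPM) were lower with TNF-α, without overlap, as the called DOCK genes were, *CYBB* overlapped, and *FPR1* was higher (5.76 and 8.32 CPM). The sum of the azurophil granule and promyelocyte genes, most of it *MPO*, overlapped between vehicle and TNF-α in granulocytes (2301 to 2516 and 2259 to 2470 CPM), but its member *CD33* did not (165 to 172 and 110 to 119 CPM).

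*DOCK6*, of subfamily C, and *DOCK3*, of subfamily B, lie outside the set and were low in these cells. *DOCK6* had 71 to 125 counts per promyelocyte library and 16 to 31 per granulocyte library and was not called (adjusted p = 0.545 and 0.648). *DOCK3* had at most 4 counts in promyelocytes, where it was not tested, and 22 to 35 in granulocytes (adjusted p = 0.875).

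Summed over the 8 members, the level per length was 67.5 ± 0.33 CPM per kb (SD, n = 3) in vehicle-treated promyelocytes and 64.9 ± 1.9 after TNF-α, and the libraries did not overlap. In granulocytes the sum was 174 ± 2.9 with vehicle and 143 ± 4.2 with TNF-α. Subfamily A (*DOCK2* and *DOCK5*) held 50.8 ± 0.66% of the sum in vehicle-treated promyelocytes and 38.3 ± 0.24% in vehicle-treated granulocytes, while subfamily D (*DOCK10* and *DOCK11*) held 24.6 ± 0.97% and 37.5 ± 0.67%. With TNF-α the share of subfamily A in granulocytes was 44.8 ± 0.35%, and the shares of *DOCK8* and of subfamily D there were 18.9 ± 0.37% and 34.1 ± 0.41%. *DOCK2*, which was not called, went from 24.0 ± 0.32% to 28.7 ± 0.14% of the granulocyte sum. In promyelocytes *DOCK10* went from 2.53 ± 0.21% to 5.24 ± 0.13%, and *DOCK8* from 21.3 ± 0.57% to 18.5 ± 0.66%.

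The genes whose levels followed that of *DOCK10* most closely were sought among 12047 genes, by Pearson's r over the 12 libraries after each cell type's mean log2 CPM had been subtracted. They were *TAGAP* (r = 0.983), which encodes a GTPase-activating protein of activated T cells, *ELL2* (0.970), an elongation factor subunit, *CYTH4* (0.967), an exchange factor for ARF GTPases, *DDIT4* (0.965), an inhibitor of mTORC1 signaling, and the antisense RNA *TTN-AS1* (0.956). Like *DOCK10*, they had positive log2 fold changes in promyelocytes (0.50, 0.76, 0.91, 0.62 and 1.76) and negative ones in granulocytes (-0.28, -0.20, -0.26, -0.32 and -0.48). The other detected members had r of -0.42 (*DOCK5*) to 0.21 (*DOCK2*) with *DOCK10*, and *DOCK11* had 0.18. The 12 points share 4 group means, so these values describe the ranking only. The 5 genes most like *DOCK10* were picked by this correlation, so their matching signs follow from the choice and add nothing to it.

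Genes that work with the DOCK proteins were described from 5 lists of 71 genes, of which 63 were tested in promyelocytes and 65 in granulocytes. In promyelocytes 5 were called higher and 10 lower (23.8% of those tested), with a median log2 fold change of -0.03. In granulocytes 26 were called higher and 27 lower (81.5%), with a median of 0.04, and the difference of the responses was called for 32 of 65, 19 of them higher in granulocytes. The shares over all genes were the 14.8%, 49.2% and 24.0% given above.

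**Figure D3:**
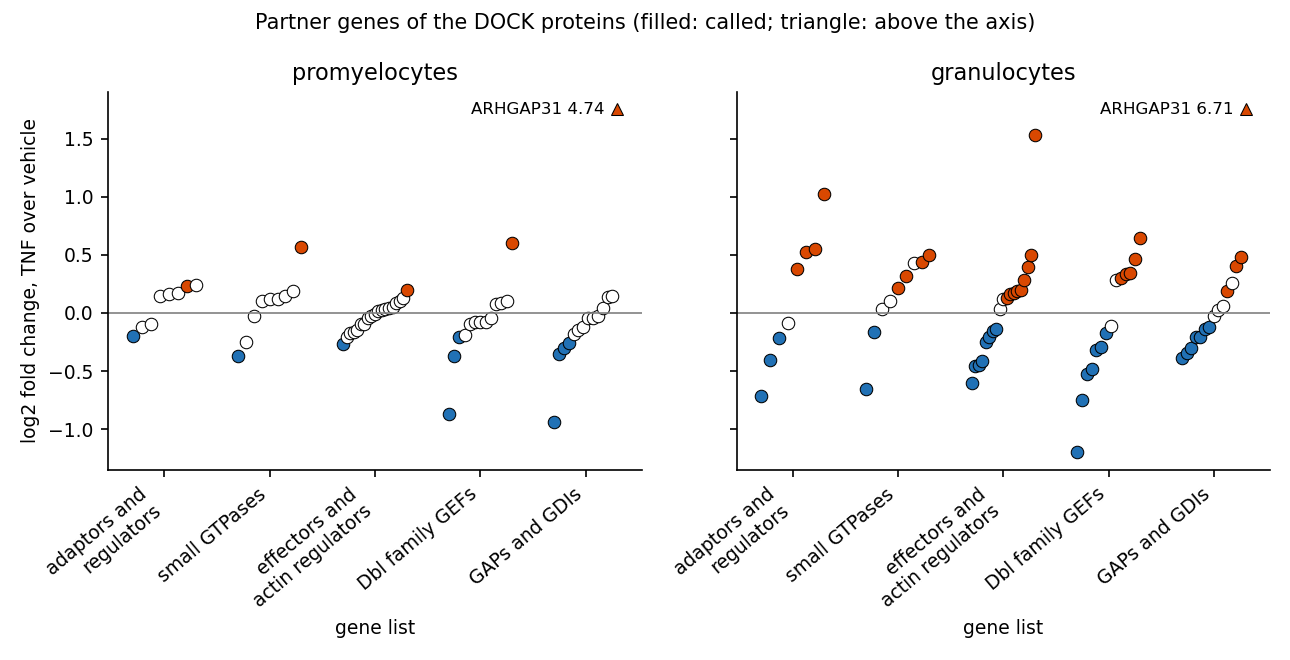
Log2 fold changes of TNF-α over vehicle for the tested genes of the 5 partner lists (points ordered by value within a list), in promyelocytes (left) and granulocytes (right); filled points were called (orange higher, blue lower), and the triangle marks *ARHGAP31*, above the axis at 4.74 and 6.71. In promyelocytes most points are open, and in granulocytes most are filled, with members on both sides of 0 in each list.

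Among adaptors and regulators of the DOCK proteins, 1 of 8 tested rose and 1 fell in promyelocytes, and 4 rose and 3 fell in granulocytes. *ELMO1*, the scaffold that pairs with DOCK2 and DOCK5, was not called in promyelocytes (-0.12 ± 0.06, adjusted p = 0.166) and fell in granulocytes from 144 to 126 CPM (-0.21 ± 0.05, adjusted p = 0.00038). *ELMO2* rose in granulocytes from 55.8 to 114 CPM (1.02 ± 0.05, adjusted p = 6.23e-19) and was not called in promyelocytes (0.17 ± 0.06, adjusted p = 0.085); the difference was 0.89 ± 0.08 (adjusted p = 3.06e-09). *ELMO3*, at 5.16 to 7.86 CPM in the group means, rose in granulocytes (0.52 ± 0.13, adjusted p = 0.00083), and its difference was not called (adjusted p = 0.241). *WIPF1*, which encodes the WASP-binding protein WIP that links DOCK8 to actin, fell in granulocytes (-0.71 ± 0.05, adjusted p = 9.15e-15), as *DOCK8* did. In promyelocytes *WIPF1* was called lower (-0.20 ± 0.06, adjusted p = 0.0228) and lost the call without any one of vehicle replicates 1, 2 and 3 or TNF-α replicate 2 (adjusted p = 0.0563 to 0.134). *LRCH1*, an inhibitor of DOCK8, was called higher in promyelocytes (0.23 ± 0.06, adjusted p = 0.0214, lost without vehicle replicate 1 or 2 or TNF-α replicate 1, adjusted p = 0.0827 to 0.11) and in granulocytes (0.55 ± 0.06, adjusted p = 1.97e-10). *ANKRD28*, a DOCK1-binding protein, fell in granulocytes, and its response differed between the cell types by -0.54 ± 0.08 (adjusted p = 1.69e-05).

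Of the GTPases, *RAC1* rose in granulocytes (0.44 ± 0.05, adjusted p = 1.19e-09), and *CDC42*, the substrate of DOCK8 and DOCK10, rose by 0.21 ± 0.05 (adjusted p = 0.00036). *RAC2*, the RAC of hematopoietic cells and the substrate of DOCK2, was not called in either cell type (adjusted p = 0.852 and 0.605), with means of 622 ± 27 and 644 ± 50 CPM in granulocytes with vehicle and TNF-α. *RHOG*, which recruits ELMO, was called lower in granulocytes (-0.17 ± 0.05, adjusted p = 0.0105), a call lost without vehicle replicate 3, TNF-α replicate 2 or TNF-α replicate 3 (adjusted p = 0.0642 to 0.0985). *RHOQ* rose in both cell types (0.57 ± 0.07 and 0.50 ± 0.05, adjusted p = 7.64e-06 and 5.44e-11) and *RHOU* fell in both (-0.37 ± 0.06 and -0.66 ± 0.05, adjusted p = 0.00025 and 4.86e-13).

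Other regulators of the same GTPases moved in both directions. The Dbl family exchange factors *FGD3* and *FGD4*, which act on CDC42, fell in promyelocytes (-0.87 ± 0.10 and -0.37 ± 0.10, adjusted p = 2.03e-06 and 0.0173) and in granulocytes (-0.75 ± 0.05 and -1.20 ± 0.05, adjusted p = 6.31e-15 and 4.99e-22); the *FGD4* call in promyelocytes was lost without vehicle or TNF-α replicate 3 (adjusted p = 0.079 and 0.0847). *ARHGEF7* rose in both (0.60 ± 0.06 and 0.64 ± 0.05, adjusted p = 3.74e-07 and 4.53e-14). *ARHGAP31*, a GTPase-activating protein for CDC42 and RAC1, rose from 0.112 CPM (1 to 6 counts) to 3.13 CPM (75 to 109 counts) in promyelocytes (adjusted p = 4.82e-09) and from 0.685 to 73.0 CPM in granulocytes (adjusted p = 1.55e-34). *ARHGAP25*, which acts on RAC in phagocytes, fell in promyelocytes (-0.94 ± 0.08, adjusted p = 2.21e-08) and was not called in granulocytes (0.06 ± 0.05, adjusted p = 0.411). *ARHGAP1* fell by 0.36 ± 0.07 and *BCR* by 0.30 ± 0.06 on the log2 scale in promyelocytes (adjusted p = 0.00104 and 0.00133). In granulocytes *ARHGAP1* was also lower, at 78.5 to 88.2 CPM with vehicle and 62.5 to 67.7 CPM with TNF-α. *BCR* was called lower there too, a call lost without vehicle replicate 2 or 3 or TNF-α replicate 1 or 2 (log2 fold changes -0.14 to -0.10).

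Downstream of RAC and CDC42, 1 of 19 effectors and actin regulators tested was called higher and 1 lower in promyelocytes, *ACTR3* (0.20 ± 0.06, adjusted p = 0.0339) and *CYFIP2* (-0.27 ± 0.07, adjusted p = 0.0108). The *CYFIP2* call was lost without TNF-α replicate 2 (adjusted p = 0.0921), and that of *ACTR3* without any one of replicates 1 and 2 of either group (adjusted p = 0.0585 to 0.217). In granulocytes 9 rose and 8 fell. *BAIAP2*, which encodes the CDC42 effector IRSp53, rose (1.53 ± 0.08, adjusted p = 3.15e-18), *CYFIP1* of the WAVE complex rose (0.50 ± 0.06, adjusted p = 9.55e-09), and the kinase gene *PAK1* fell (-0.60 ± 0.05, adjusted p = 2.84e-13).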

How the data were processed

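Total RNA of 12 HL-60/S4 flasks was depleted of ribosomal RNA and sequenced as paired ends. Per the file header and the study's methods, the authors aligned reads to hg38 with STAR 2.5.3a, checked them with FastQC 0.11.4 and deposited raw counts per gene made by featureCounts 1.5.2 on GENCODE 27, from primary pairs with both ends mapped, counted by strand. The groups came from the sample labels.

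From these counts, genes were filtered by expression (minimum count 10, minimum total 15), scaled by TMM and tested with edgeR 4.0.16 (quasi-likelihood, Benjamini-Hochberg, 0.05) in R 4.3.3, TNF-α against vehicle in each cell type alone, and the difference of the responses in 12 libraries. Levels are CPM on TMM library sizes, per kb of the deposited exon length where genes are compared. An exact permutation test of 3 against 3 cannot go below 0.1. The procedure was run on simulated data in which few genes changed, each by the same size, on a baseline shared by all groups. That setting is simpler than these data and does not cover small changes or shifts of many genes. The members and lists were chosen with earlier results of these data known; the text names the 8 members, *DOCK3*, *DOCK6*, the ELMO genes, *RAC1*, *RAC2*, *CDC42*, *RHOG*, the 2 treatment checks, the 5 genes most like *DOCK10*, and per partner list and comparison up to 3 called genes with the largest change at a mean log2 CPM of at least 1. Alternatives were DESeq2 1.42.0, its size factors, no filter, removed GC and length trends, a fit of all 12 libraries, a replicate block, an adjusted p under 0.01, and omission of single libraries in turn. Some listed genes are not reported here. Promoter sequences are from RefSeq GRCh38.p14.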

Additional observations from a re-analysis of the deposited data

Results flagged for a closer look

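The response to TNF-α differed between granulocytes and promyelocytes by the interaction test for several DOCK genes and partners, and the values below are granulocyte minus promyelocyte log2 fold changes. Among the DOCK genes the difference was -1.46 for *DOCK10*, -0.26 for *DOCK8* and -0.27 for *DOCK11*. For these 3, which had been picked with the responses known, the values are a description. The cell types were treated in separate experiments, so a difference between cell types and one between experiments cannot be told apart.

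Among adaptors and regulators the difference was 0.89 for *ELMO2*, 0.36 for *LRCH1*, -0.47 for *WIPF1* and -0.54 for *ANKRD28*. Among the GTPases it was 0.38 for *RAC1*, 0.72 for *RAC3* and -0.24 for *RHOU*. The *RAC3* call was lost without granulocyte vehicle replicate 2 (0.64), TNF-α replicate 2 (0.57) or TNF-α replicate 3 (0.63), and that of *RHOU* in 7 of 12 fits with 1 library left out (promyelocyte vehicle 2 and 3, promyelocyte TNF-α 2, granulocyte vehicle 2 and 3, granulocyte TNF-α 1 and 2), at -0.25 to -0.19.

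Among effectors it was 1.59 for *BAIAP2*, 0.41 for *CYFIP1*, 0.53 for *WASF2* and -0.39 for *PAK1*. Among other exchange factors it was -0.79 for *FGD4*, 0.58 for *VAV2* and 0.56 for *PLEKHG3*. Among GTPase-activating proteins and inhibitors it was 1.04 for *ARHGAP25*, 2.01 for *ARHGAP31*, 0.56 for *SRGAP2* and 0.56 for *ARHGDIA*. The *ARHGAP31* call was lost without promyelocyte vehicle replicate 1 (1.35), one of the libraries with 1 to 6 counts.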

How the results depend on the processing

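The calls of *DOCK10* held under all alternatives run, which is a description only, as the gene was picked on these same libraries. In promyelocytes 4 members were called instead of 2 with GC and length trends removed, and 1 to 2 with 1 library left out. Of all 16250 genes there, 1415 were called higher and 1196 lower with the trends removed. Leaving out 1 promyelocyte library gave 945 to 1315 genes called higher and 653 to 1160 called lower. With a threshold of 0.01, 9 instead of 15 partners were called in promyelocytes and 21 instead of 32 for the difference. The share of all genes called at 0.01 is not reported here. Leaving out 1 library gave 11 to 18 and 25 to 32 partners. For the difference it gave 2153 to 2740 of all genes called higher and 1451 to 1833 called lower. Summed member levels moved by more than 1 SD with DESeq2's size factors in promyelocytes with vehicle (67.0 CPM per kb instead of 67.5) and with library totals in granulocytes (183 instead of 174 with vehicle, 135 instead of 143 with TNF-α). Signs turned only for values that were not called: *DOCK2* in promyelocytes in 1 fit of all 12 libraries (-0.0013), *DOCK3* in granulocytes without vehicle replicate 1 (0.14) or TNF-α replicate 2 (0.018; range with 1 library left out -0.26 to 0.14), the *DOCK3* difference without promyelocyte TNF-α replicate 3 (-0.044; range -0.044 to 2.10), and the *DOCK5* difference with DESeq2's size factors (-0.0092), no filter (-0.042), DESeq2 (-0.018) or without granulocyte vehicle replicate 1 (-0.0079; range -0.0079 to 0.064). The cause was not tested. Same-numbered libraries did not deviate together (correlations -0.28 to 0.01). These deviations were centred on group means of 3 libraries, so the correlations cannot show whether the numbers pair samples. With a replicate block 2, 4 and 2 members and 11, 49 and 26 partners were called in promyelocytes, in granulocytes and for the difference. Over all genes the block gave 1012 higher and 821 lower of 16250 in promyelocytes. It gave 3837 and 3884 of 16944 in granulocytes, and 2034 and 1315 of 18124 for the difference. The block ended the calls of *DOCK5* in granulocytes (-0.14, and -0.092 with trends also removed) and of the *DOCK8* difference (-0.26).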
